A study of Arabidopsis thaliana with 30 samples.

Results

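The 59 genes described here were lower in a cryptochrome double mutant than in wild-type Arabidopsis thaliana under sunlight filtered free of UV, and level with wild type when solar UV was let through. They were chosen by their measured levels, out of 34212 loci. A gene was taken when it met 4 conditions on CPM, a gene's count scaled to the same total in every library, each averaged over the 2 libraries of a group. Its mean was at least 5 CPM in the wild type under the filter UV0. On the scale log2(mean CPM + 1) it stood at least 0.7 lower in cry1cry2 than in the wild type under UV0, and within 0.3 of the wild type under UVA+B. It also rose by at least 0.3 in the wild type from UV0 to UVA+B. Of 14416 loci that passed the level condition, 254 were lower in cry1cry2 under UV0 by this rule, 59 of these met the other conditions, and 195 did not. The limit of 150 genes that came with the rule was not reached.

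RNA was sequenced from rosettes of the accession Ler, which is wild type for these photoreceptors, of uvr8-2, a mutant of the UV-B receptor UVR8, and of cry1cry2, a double mutant of the blue and UV-A receptors cryptochrome 1 and cryptochrome 2. The plants were 3 weeks old, had grown in rooms with a 12 h photoperiod and a filter that kept out the UV-A of the lamps, and were carried outdoors at sunrise of 1 day for 6 h of sunlight under plastic filters that cut off shorter wavelengths. The 5 filters bear the names UVA+B, UVA, UVA350, UV0 and then blue0. As far as the names tell, they let through, in that order, less and less of UV-B, short UV-A, long UV-A and blue light, and the labels give no wavelengths. Each of the 15 groups (3 genotypes by 5 filters) had 2 libraries, each of RNA from 2 of 4 field blocks, with 5 rosettes pooled in a block sample. All 3 genotypes went through the same rooms, day and filters, and each mutant is represented by 1 line. In whole rosettes, fewer cells of a type and less RNA per cell cannot be told apart, and since the libraries are pools from 1 day outdoors, the p-values reflect only how far such pools differed.

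Cryptochromes absorb blue light and UV-A, and the UVR8 protein absorbs UV-B and, more weakly, short UV-A. Both act by restraining the COP1-SPA ubiquitin ligase, which otherwise breaks down the transcription factor HY5, an activator of flavonoid and light-protection genes. Flavonols are phenolic screens of the leaf epidermis made from phenylalanine, and early light-induced proteins, xanthophylls and tocopherol protect chloroplasts in strong light.

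Library totals ran from 12109222 to 22865826 estimated counts. Chloroplast genes took 0.123% to 1.585% of them, and 3 libraries lay above 1%, namely replicate 2 of uvr8-2 under blue0 and of cry1cry2 under UVA+B and under UVA. The 6 rosette leaf markers summed to 26157 to 44726 CPM, the 7 root markers to 0.06 to 0.88 CPM, the 6 flower markers to 1.32 to 7.22 CPM, the 5 guard cell markers to 97.46 to 149.02 CPM and the 4 phloem markers to 227 to 394 CPM, and no marker of these lists was at 0 in all libraries. The mutated genes were still transcribed: CRY1 RNA was lower in cry1cry2 than in Ler by a log2 difference of -0.54 ± 0.11 under UVA350 (SE; edgeR quasi-likelihood test, Benjamini-Hochberg adjusted p = 0.00446), CRY2 RNA differed by -0.32 ± 0.18 (adjusted p = 0.291, edgeR), and UVR8 RNA in uvr8-2 differed from Ler by 0.16 ± 0.09 (adjusted p = 0.863, edgeR).

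Among the 59 genes, 10 of the 24 enzymes listed for flavonoid and phenylpropanoid synthesis were present: PAL1, 4CL3, CHS, CHI, CHIL, F3H, FLS1, UGT78D2, UGT89C1 and RHM1. The list of photoprotection and carotenoid genes gave 5 of its 16, namely ELIP1, ELIP2, PSBS, BCH1 and GPX7. The flavonol activator MYB111 came from 12 listed flavonoid regulators and the UVR8 repressor RUP2 from 19 genes of UVR8 and HY5 signalling. No gene came from the other 18 of the 22 lists, which cover among others chlorophyll synthesis, light harvesting, the clock, jasmonate and salicylate responses and heat shock. The other 42 genes are on none of these lists. Of the 58 genes found in the reference annotation, 14 lie on chromosome 1, 6 on chromosome 2, 8 on chromosome 3, 15 on chromosome 4 and 15 on chromosome 5.

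The values that chose the genes are given as a description, without a test. The median of cry1cry2 minus Ler over the 59 genes was -0.89 under UV0 and -0.07 under UVA+B on the log2(mean CPM + 1) scale. From UV0 to UVA+B the median rise was 1.26 in Ler and 2.25 in cry1cry2, with ELIP2 rising most in cry1cry2 (6.20). Nearest the level limit, PIMT2 (6.91 CPM) and MYB32 (8.21 CPM) lay inside, while AT5G44490 (4.19 CPM) and AT5G37550 (3.02 CPM) met the other conditions and lay outside. Nearest the limit on loss, RHM1 (0.71) and PSB28 (0.72) lay inside and AT3G24190 and BBX31 outside, with values of 0.696 and 0.69. For closeness under UVA+B, DHS1 (0.29) and FIB (0.29) lay inside and AT5G55570 (0.31) and AT2G23910 (0.33) outside. For the rise in Ler, PIMT2 (0.34) and AT4G34588 (0.35) lay inside and AT1G54217 (0.22) and AT3G56260 (0.07) outside. Membership depended on the libraries. With replicate 1 alone the rule took 77 genes, 44 of them among the 59, and with replicate 2 alone it took 34, 30 of them among the 59. In cry1cry2 under UV0, a group that chose the genes, replicate 2 was higher than replicate 1 in 56 of the 59. The median of replicate 1 minus replicate 2 there was -0.37 on the log2(CPM + 1) scale.

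**Figure D1:**
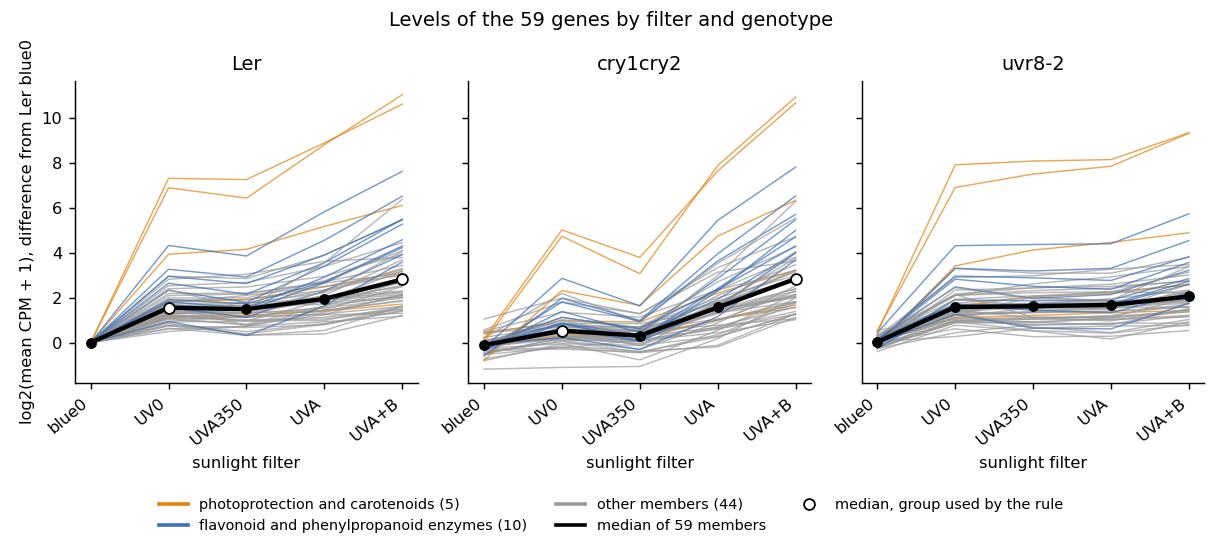
Level of each of the 59 genes on the log2(mean CPM + 1) scale, as the difference from Ler under blue0, against the 5 filters in the 3 genotypes, with open circles for the medians of the 4 groups that chose the genes. In cry1cry2 the median (black) stays low under UV0 and UVA350 and rises under UVA and UVA+B, whereas in uvr8-2 it stands high from UV0 on and rises least.

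The tests below use libraries that did not choose the genes: all of uvr8-2, and Ler and cry1cry2 under UVA, UVA350 and blue0. A gene is called when its Benjamini-Hochberg adjusted p is under 0.05 in edgeR's quasi-likelihood test over all 19980 genes past the filter on low counts, and all 59 genes were past it. Several comparisons share libraries, above all those of cry1cry2 under UVA350, and are not independent of one another. The comparison of cry1cry2 with Ler under UVA350 repeats, in other libraries, a genotype difference that the rule took under the neighbouring filter. The step from UVA350 to UVA lies inside the range from UV0 to UVA+B, over which the rule asked for a rise in Ler. Its conditions also imply a larger rise in cry1cry2 than in Ler over that range. A rise in this step, a larger one in cry1cry2 and a narrower gap under UVA were thus favoured by the choice of genes. Where groups are said below to lie apart or not to overlap, this only describes 2 libraries against 2. Such small groups often lie apart without a difference, and the share of all genes that do so was not counted.

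Under UVA350, 55 of the 59 genes were lower in cry1cry2 than in Ler and none was higher, where 4.82% of all genes tested were called lower and 4.78% higher. The median log2 difference of the 59 genes was -1.18, with a range from -3.60 to -0.69, against 0.03 over all genes tested. All 10 flavonoid enzymes fell (median -1.59), all 5 photoprotection genes fell (median -2.70), and so did 40 of the other 44 genes (median -1.15). The 4 genes not called were DREB2C, ERD9, GPT2 and PIMT2, all with estimates below 0. In uvr8-2 against Ler under UVA350, edgeR called 0 of the 59 genes, where 0.01% of genes were called higher and 0% lower. At an unadjusted p under 0.05, 4 of the 59 were higher, where 6.17% of all genes passed in either direction, and DESeq2 called 1 of the 59, where it called 0.115% of genes. The median log2 difference between uvr8-2 and Ler was 0.13. Marker genes also differed between cry1cry2 and Ler under UVA350: 2 of the 6 rosette leaf markers were lower and 0 higher (median -0.33, edgeR), with sums of 34732 and 38448 CPM in cry1cry2 and 38415 and 39558 CPM in Ler, and 1 of the 4 phloem markers was higher, with sums of 369 and 392 CPM in cry1cry2 and 274 and 280 CPM in Ler. Their part in the result was not tested.

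The short UV-A step, UVA against UVA350, raised 48 of the 59 genes in cry1cry2 and lowered none, where 2.19% of genes tested were called higher and 1.35% lower. The median log2 rise was 1.39, against -0.02 over all genes. None of the 6 rosette leaf, 5 guard cell or 4 phloem markers was called in this step (edgeR). All 10 flavonoid enzymes rose (median 2.37), as did all 5 photoprotection genes (median 3.30) and 33 of the other 44 (median 1.25). Genes not called were DREB2C, GPT2, MYB32, AT2G47890, AT4G22240, AT1G24090, AT4G34588, AT3G05410, FIB, ASE2 and PIMT2.

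In Ler the same step raised 9 of the 59 genes, where 0.185% of genes were called higher and 0.015% lower, and all 59 estimates lay above 0, with a median of 0.55 against 0.00 over all genes. These 9 were the enzymes FLS1, 4CL3, PAL1, RHM1, UGT89C1 and CHI, the plastid protease gene SPPA, AT1G19140 and AT5G62210. DESeq2 called 20 of the 59, all higher, and 0.49% of genes. None of the 9 calls was kept in edgeR without replicate 1 of Ler under UVA or without either library of Ler under UVA350. In uvr8-2 the step gave no call: edgeR called 0 of the 59 and 0% of all genes in both directions, 0 of the 59 had an unadjusted p under 0.05 where 3.17% of all genes did, and DESeq2 called 0 of the 59 and 0% of genes. The median in uvr8-2 was 0.04, with a range from -0.44 to 0.33.

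The difference of this step between genotypes was tested as an interaction. The step was larger in cry1cry2 than in Ler in 3 of the 59 genes, GPX7, SPPA and AT1G57770, and these were the only genes called of all 19980 (0.015%). The estimate lay above 0 in 58 of 59 genes, with a median of 0.79 against -0.01 over all genes. DESeq2 called 14 of the 59, all with a larger step in cry1cry2, and 0.0801% of genes. In edgeR all 3 calls were lost without the libraries above 1% chloroplast counts, and without each of 7 of the 8 libraries compared (both of Ler under UVA, both of Ler under UVA350, both of cry1cry2 under UVA, and replicate 1 of cry1cry2 under UVA350). Without replicate 2 of cry1cry2 under UVA350, SPPA and AT1G57770 were still called and GPX7 was not. The step in uvr8-2 was set against that in Ler after the values had been seen. There edgeR called 0 of the 59 and 0% of genes, although all 59 estimates lay below 0 with a median of -0.50 against 0.00 over all genes. The rule asked for a UV rise in Ler and set no condition on uvr8-2. A smaller step in uvr8-2 was thus favoured by the choice of genes. At an unadjusted p under 0.05, 26 of the 59 had a smaller step in uvr8-2, where 3.43% of genes passed in either direction. DESeq2 called 5 of the 59 and 0.03% of genes.

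**Figure D2:**
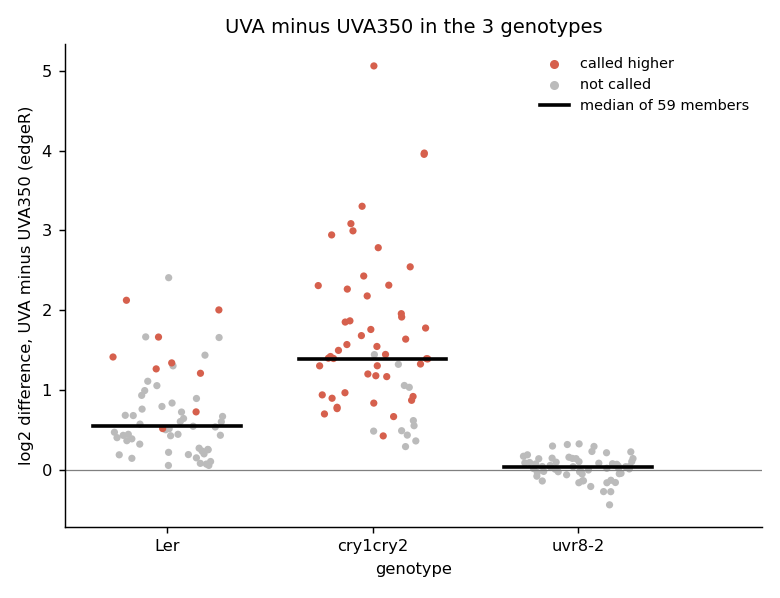
The log2 difference between UVA and UVA350 (edgeR) for each of the 59 genes in the 3 genotypes, with genes called higher in red and medians as black bars. The medians are 0.55 in Ler, 1.39 in cry1cry2 and 0.04 in uvr8-2, and the points of uvr8-2 lie between -0.44 and 0.33.

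The 250 bases before the annotated start of each gene were searched for 5 short motifs on both strands, in RefSeq's TAIR10.1 sequence of the accession Columbia. The plants were Ler, and the transcriptome the authors counted on is not given in the sources used here. A promoter was read for 57 of the 59 genes, leaving out the noncoding AT3G51238 and AT4G34588, which is not in that annotation. The G-box CACGTG, the core of sites that HY5 and related factors bind, was in 11 of 57 (19.3%), against 6.5% of all 27443 protein-coding promoters of this length, 7.4% of those of genes tested and 10.2% of 187 promoters of the lost genes outside the set. Its core ACGT, which every G-box holds, was in 57.9% against 44.1% of all promoters and 52.9% of those of the lost genes outside the set. The AC element ACCTACC, a motif known for MYB factors of phenylpropanoid genes, was in 5 of 57 (8.8%). It was in 1.2% of all promoters and 1.6% of those of the lost genes outside the set. The evening element AAAATATCT was in 10.5% against 2.4% of all promoters and 7.5% of those of the lost genes outside the set. For the I-box core GATAAG these shares were 7.0%, 12.3% and 9.6%. A match is a description of these letters and no evidence of binding, and 42 of the 57 promoters held neither a G-box nor an AC element. Those of ELIP2, FLS1, GPX7, PAL1, MYB111, CHI and RUP2 were among the 42.

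The next 8 stretches show where these letters lie in 8 of the 15 promoters with a G-box or an AC element. These are examples picked from genes of light protection, flavonoids and photosystem II, together with ERD9, a glutathione transferase gene and the only one with both. They are written 5′ to 3′ on the strand of the gene, in TAIR10.1, with up to 20 flanking bases and with the motif in capitals. Those of ELIP1 (chr3:8085710-8085755, minus strand), F3H (chr3:19024942-19024968, plus strand), CHIL (chr5:1563199-1563244, plus strand), CHS (chr5:4488226-4488268, plus strand) and PSB28 (chr4:14149697-14149742, plus strand) hold a G-box. Those of 4CL3 (chr1:24171677-24171775, minus strand) and UGT89C1 (chr1:1822061-1822107, minus strand) hold AC elements, 2 in the case of 4CL3, and that of ERD9 is at chr1:3398383-3398484 on the minus strand.
ELIP1: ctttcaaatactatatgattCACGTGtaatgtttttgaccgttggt
F3H: cCACGTGatttctccacagaccacaag
CHIL: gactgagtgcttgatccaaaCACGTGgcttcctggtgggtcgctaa
CHS: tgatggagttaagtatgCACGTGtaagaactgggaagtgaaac
PSB28: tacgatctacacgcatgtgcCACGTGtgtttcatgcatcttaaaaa
4CL3: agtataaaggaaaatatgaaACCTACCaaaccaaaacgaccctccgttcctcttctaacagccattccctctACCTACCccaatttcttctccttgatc
UGT89C1: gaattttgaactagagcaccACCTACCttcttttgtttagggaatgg
ERD9: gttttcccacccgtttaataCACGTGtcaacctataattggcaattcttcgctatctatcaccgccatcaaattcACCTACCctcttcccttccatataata

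The photoprotection genes had the lowest median difference of the 3 kinds of gene under UVA350. ELIP1, an early light-induced protein of the thylakoid with the G-box shown above, stood at 487 and 506 CPM in Ler under UVA350 and at 48.1 and 39.7 CPM in cry1cry2. Under UVA its RNA was at 1900 and 1184 CPM in Ler, and at 803 and 492 CPM in cry1cry2. In uvr8-2 it was at 944 and 818 CPM under UVA350 and at 1254 and 590 CPM under UVA. The mutant cry1cry2 lay far below both other genotypes under UVA350, without overlap, while under UVA its higher library passed the lower library of uvr8-2. The log2 difference between cry1cry2 and Ler was -3.58 ± 0.44 under UVA350 (SE, n = 2 libraries a group; adjusted p = 7.09e-05, edgeR) and -1.26 ± 0.40 under UVA (adjusted p = 0.0929, edgeR). From UVA350 to UVA it rose by 3.97 ± 0.45 in cry1cry2 (adjusted p = 5.03e-05, edgeR).

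ELIP2, the second protein of this pair, stood at 112 and 98.8 CPM in Ler under UVA350 against 11.7 and 6.78 CPM in cry1cry2. Its log2 difference of -3.60 ± 0.65 was the lowest of the 59 genes under that filter (adjusted p = 0.00251, edgeR). Under UVA its replicates were far apart in each genotype, at 787 and 313 CPM in Ler, 433 and 144 CPM in cry1cry2 and 443 and 123 CPM in uvr8-2. Replicate 1 was the higher library in all 3 genotypes.

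GPX7, a glutathione peroxidase-like enzyme of the chloroplast, stood at 61.2 and 61.7 CPM in Ler under UVA350 and at 10.1 and 9.85 CPM in cry1cry2. Under UVA it was at 136 and 115 CPM in Ler and at 96.8 and 88.9 CPM in cry1cry2. In uvr8-2 it was at 63.2 and 57.0 CPM under UVA350 and at 79.7 and 72.5 CPM under UVA. Replicates lay close together, Ler and uvr8-2 overlapped under UVA350, and cry1cry2 lay above uvr8-2 under UVA. The step from UVA350 to UVA was 3.30 ± 0.25 in cry1cry2 (adjusted p = 2e-07, edgeR) and 1.05 ± 0.22 in Ler (adjusted p = 0.0528, edgeR), and the difference between the steps was 2.25 ± 0.32 (adjusted p = 0.0204, edgeR). GPX7 overlaps the locus AT4G31875 on the other strand, and without a stated strand setting their reads cannot be told apart.

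PSBS, the thylakoid protein that switches on heat dissipation of excess light, was lower in cry1cry2 as well. Its RNA was at 4065 and 3904 CPM in Ler under UVA350 and at 1923 and 2246 CPM in cry1cry2, a log2 difference of -1.01 ± 0.11 (adjusted p = 6.73e-06, edgeR). Under UVA, Ler stood at 4603 and 4514 CPM and cry1cry2 at 3662 and 3354 CPM. BCH1, a beta-carotene hydroxylase of xanthophyll synthesis, was at 118 and 98.4 CPM in Ler and at 53.7 and 53.9 CPM in cry1cry2 under UVA350 (-1.08 ± 0.20, adjusted p = 0.00173, edgeR). Both genes kept their groups apart under UVA350, at smaller differences than the ELIP genes and GPX7.

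Of the 16 listed photoprotection and carotenoid genes, 9 were lower in cry1cry2 than in Ler under UVA350 and 0 higher, and 8 rose from UVA350 to UVA in cry1cry2. Both counts hold the 5 that are among the 59 and were chosen as lower under UV0. Of all 19980 genes tested, 963 were lower and 955 higher under UVA350, and 437 rose in that step. All 11 that are not among the 59 missed the limit on loss under UV0.

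Along the flavonoid pathway the 10 enzymes ran from the entry from phenylalanine to the sugars put on flavonols. PAL1, which removes ammonia from phenylalanine, stood at 264 and 242 CPM in Ler under UVA350 and at 120 and 81.8 CPM in cry1cry2 (log2 difference -1.41 ± 0.27, adjusted p = 0.00234, edgeR). 4CL3, the coumarate ligase that feeds flavonoid synthesis, was at 36.9 and 41.5 CPM in Ler and at 13.4 and 8.83 CPM in cry1cry2 (-1.90 ± 0.27, adjusted p = 0.000209, edgeR). In both genes the Ler libraries lay above those of cry1cry2 without overlap.

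CHS, chalcone synthase, is the committing step of flavonoid synthesis, and its promoter holds a G-box at the far end of the window read. It stood at 591 and 760 CPM in Ler under UVA350 and at 215 and 203 CPM in cry1cry2, and under UVA at 1979 and 1298 CPM in Ler and at 1596 and 1118 CPM in cry1cry2. The groups were apart under UVA350 and overlapped under UVA. The log2 difference was -1.77 ± 0.29 under UVA350 (adjusted p = 0.000678, edgeR) and -0.28 ± 0.28 under UVA (adjusted p = 0.634, edgeR), and the step between these filters in cry1cry2 was 2.78 ± 0.30 (adjusted p = 1.73e-05, edgeR). CHS overlaps the locus AT5G13940 on the other strand. In uvr8-2 CHS was at 724 and 891 CPM under UVA350 and at 963 and 527 CPM under UVA, and these ranges overlapped.

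The isomerase CHI and its relative CHIL, which aids CHS, followed. CHIL was at 85.6 and 98.0 CPM in Ler under UVA350 and at 34.2 and 20.8 CPM in cry1cry2 (-1.82 ± 0.32, adjusted p = 0.00147, edgeR). CHI was at 59.3 and 69.6 CPM in Ler and at 31.6 and 28.7 CPM in cry1cry2 (-1.17 ± 0.21, adjusted p = 0.00149, edgeR). The hydroxylase F3H was at 177 and 155 CPM in Ler and at 51.1 and 34.5 CPM in cry1cry2 (-2.04 ± 0.37, adjusted p = 0.00197, edgeR). The groups did not overlap in any of the 3 genes. F3H and the long noncoding RNA locus AT3G51238, which is also among the 59, overlap on opposite strands, and reads of the pair cannot be told apart here.

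FLS1, flavonol synthase, had the largest loss and rise among the 10 enzymes. It stood at 97.5 and 133 CPM in Ler under UVA350 and at 28.1 and 19.7 CPM in cry1cry2, then under UVA at 526 and 383 CPM in Ler and at 426 and 270 CPM in cry1cry2. In uvr8-2 it was at 139 and 190 CPM under UVA350 and at 202 and 135 CPM under UVA. The genotypes Ler and cry1cry2 were apart under UVA350 and overlapped under UVA, where cry1cry2 lay above uvr8-2. The log2 difference between cry1cry2 and Ler was -2.35 ± 0.37 under UVA350 (adjusted p = 0.000718, edgeR) and the rise in cry1cry2 from UVA350 to UVA was 3.95 ± 0.40 (adjusted p = 1.5e-05, edgeR).

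The genes for sugar transfer had smaller differences, and UGT89C1 and RHM1 overlap other loci on the opposite strand. UGT89C1, a flavonol rhamnosyltransferase, was at 129 and 139 CPM in Ler under UVA350 and at 73.4 and 52.4 CPM in cry1cry2 (-1.17 ± 0.22, adjusted p = 0.00181, edgeR). UGT78D2, a flavonoid glucosyltransferase, was at 122 and 115 CPM in Ler and at 63.4 and 44.4 CPM in cry1cry2 (-1.22 ± 0.31, adjusted p = 0.0177, edgeR). RHM1, which makes the activated rhamnose, was at 305 and 308 CPM in Ler and at 220 and 179 CPM in cry1cry2, the smallest difference of the 59 under UVA350 (-0.69 ± 0.21, adjusted p = 0.0378, edgeR). The calls of both UGT78D2 and RHM1 were lost without replicate 1 or replicate 2 of Ler or without replicate 2 of cry1cry2 under UVA350, and that of RHM1 also without replicate 1 of cry1cry2.

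Of all 24 listed enzymes, 20 were lower and 1 higher in cry1cry2 than in Ler under UVA350, and 15 rose in cry1cry2 from UVA350 to UVA. The 20 and the 15 both hold the 10 enzymes among the 59, which were chosen as lower under UV0. The 14 enzymes outside the set missed different conditions: 7 were not lost under UV0, 8 were not close under UVA+B, 2 did not rise in Ler and 1 was too low, with some missing more than 1. PAL2, C4H and UGT78D1, from the same early and flavonol steps, missed the limit on loss, at -0.53, -0.49 and -0.66 for cry1cry2 minus Ler under UV0. DFR and LDOX, 2 anthocyanin genes singled out after their values had been seen, kept a gap under UVA+B. DFR, dihydroflavonol reductase, was at -1.20 for cry1cry2 minus Ler under UVA+B and at -1.01 under UV0 on the log2(mean CPM + 1) scale. LDOX, the anthocyanidin synthase, was at -1.24 under UVA+B. Under blue0 DFR was at -0.83 and LDOX at -1.02 on the same scale, so a gap was also seen there. By edgeR, LDOX was called lower under blue0 (adjusted p = 0.0373) and DFR was not (adjusted p = 0.0805). Under UVA, where 14 of the 59 genes were still lower in cry1cry2, DFR was lower by a log2 difference of -1.19 ± 0.22 (adjusted p = 0.00459, edgeR) and LDOX by -1.33 ± 0.23 (adjusted p = 0.00283, edgeR). From UVA350 to UVA in cry1cry2 the estimate for DFR was 0.40 ± 0.22 (adjusted p = 0.376, edgeR) and that for LDOX 0.40 ± 0.23 (adjusted p = 0.398, edgeR). Not all listed anthocyanin genes kept as wide a gap. GSTF12, a glutathione transferase of anthocyanin transport, rose in cry1cry2 from UVA350 to UVA by 1.02 ± 0.22 (adjusted p = 0.0114, edgeR), and its difference from Ler was -1.56 under UVA350 and -0.74 under UVA+B on the log2(mean CPM + 1) scale. F3'H, the hydroxylase of the B ring of flavonoids, was at -1.18 under UVA and -0.72 under UVA+B on that scale. The glycosyltransferase genes UGT75C1 and UGT79B1 were at -1.27 and -1.14 under UVA+B.

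**Figure D3:**
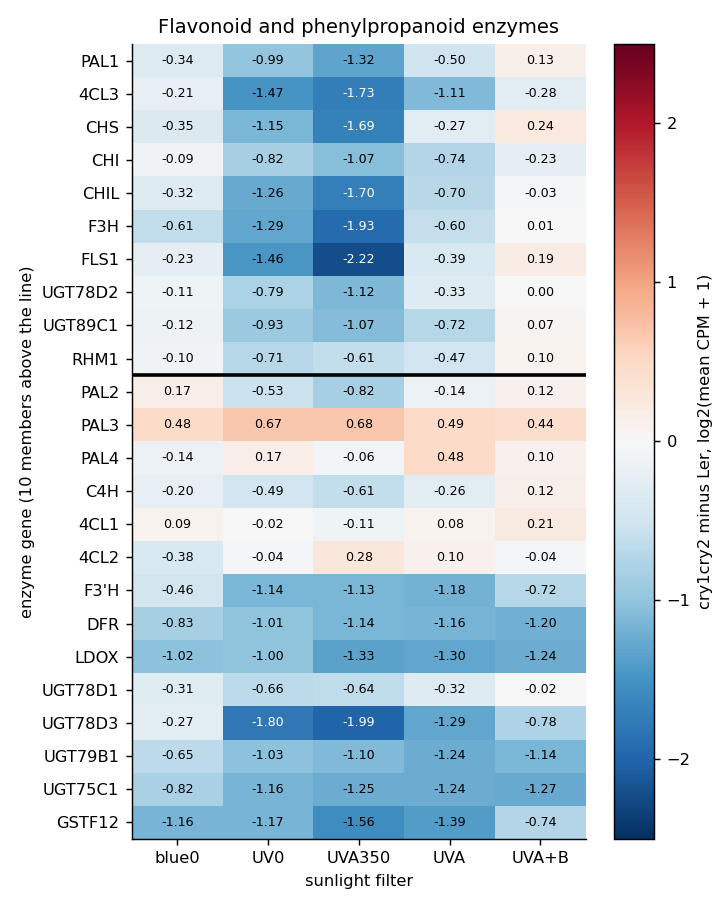
The difference cry1cry2 minus Ler on the log2(mean CPM + 1) scale for the 24 listed flavonoid and phenylpropanoid enzymes (vertical axis, the 10 enzymes among the 59 above the black line) under the 5 filters (horizontal axis). The 10 fade towards 0 from UVA350 to UVA+B, as FLS1 does from -2.22 to 0.19, whereas DFR lies between -1.20 and -1.01 from UV0 to UVA+B. Closeness under UVA+B was a condition of the rule, which the 10 met and DFR did not, so this contrast follows from the choice. GSTF12, outside the set, goes from -1.56 under UVA350 to -0.74 under UVA+B.

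Among regulators, MYB111, which activates flavonol enzyme genes, stood at 18.8 and 32.2 CPM in Ler under UVA350 and at 7.51 and 8.46 CPM in cry1cry2 (-1.75 ± 0.45, adjusted p = 0.0221, edgeR). The call was lost without replicate 2 of Ler or either library of cry1cry2 under UVA350. The WD40 protein RUP2 returns UVR8 to its inactive form. RUP2 was at 25.0 and 22.1 CPM in Ler and at 8.82 and 7.89 CPM in cry1cry2 (-1.57 ± 0.27, adjusted p = 0.000936, edgeR). From UVA350 to UVA it rose in cry1cry2 to 47.9 and 27.7 CPM, by 2.27 ± 0.26 (adjusted p = 4.28e-05, edgeR), and there its range took in both Ler libraries (43.7 and 34.8 CPM). Of the 12 listed flavonoid regulators, 4 were lower and 1 higher in cry1cry2 under UVA350, and of the 19 UVR8 and HY5 signalling genes 1 was lower and 1 higher. MYB111 was among the 4, and the lower gene of the 19 was RUP2.

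**Figure D4:**
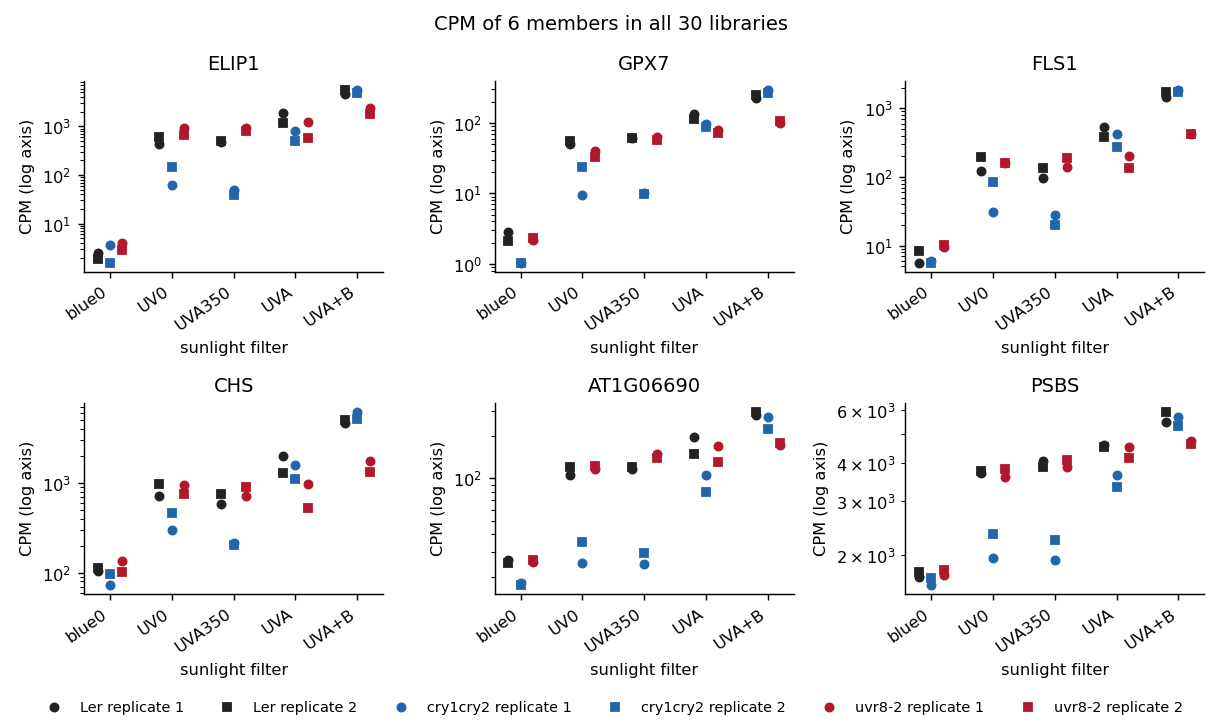
CPM (log axis) of ELIP1, GPX7, FLS1, CHS, AT1G06690 and PSBS in all 30 libraries against the 5 filters, with a colour for each genotype and a marker for each replicate. Under UVA350 both cry1cry2 libraries of ELIP1 (48.1 and 39.7 CPM) lie below those of the other genotypes (487 CPM and above). Under UVA+B they reach the Ler libraries, a closeness that the rule required of the group means.

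Outside these lists, genes for vitamins and aromatic precursors were lower as well. PDX2 and RSR4 encode the 2 kinds of subunit of the vitamin B6 synthase. PDX2 was at 208 and 222 CPM in Ler under UVA350 and at 52.0 and 70.0 CPM in cry1cry2 (-1.89 ± 0.20, adjusted p = 5.02e-06, edgeR). RSR4 was at 789 and 711 CPM in Ler and at 355 and 357 CPM in cry1cry2 (-1.15 ± 0.17, adjusted p = 0.000209, edgeR). VTE1, the tocopherol cyclase of vitamin E synthesis, was at 114 and 104 CPM in Ler and at 45.1 and 47.6 CPM in cry1cry2 (-1.31 ± 0.15, adjusted p = 1.68e-05, edgeR). All 3 rose in cry1cry2 from UVA350 to UVA, PDX2 by 1.76 ± 0.20 (adjusted p = 1.5e-05, edgeR) and VTE1 by 1.40 ± 0.15 (adjusted p = 1.47e-05, edgeR). RSR4 reached 936 and 721 CPM in cry1cry2 under UVA (adjusted p = 8.99e-05, edgeR). CM1, chorismate mutase on the way to phenylalanine, was at 85.2 and 82.8 CPM in Ler and at 42.9 and 42.3 CPM in cry1cry2 (-1.05 ± 0.17, adjusted p = 0.00036, edgeR).

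The next 4 genes, also on none of the lists, encode plastid proteins. SPPA, a light-induced protease of the thylakoid, was at 167 and 177 CPM in Ler under UVA350 and at 57.3 and 71.5 CPM in cry1cry2 (-1.49 ± 0.14, adjusted p = 1.74e-06, edgeR). Under UVA it was at 292 and 268 CPM in Ler and at 252 and 220 CPM in cry1cry2. PREP1, which clears targeting peptides from plastids and mitochondria, was at 949 and 1079 CPM in Ler and at 421 and 558 CPM in cry1cry2 under UVA350 (-1.12 ± 0.13, adjusted p = 1.68e-05, edgeR). For both the groups were apart under UVA350. FAD8, a plastid fatty acid desaturase, was at 217 and 219 CPM in Ler and at 101 and 127 CPM in cry1cry2 (-1.01 ± 0.13, adjusted p = 3.11e-05, edgeR). FAD8 overlaps the locus AT5G05590 on the other strand. PSB28, a factor of photosystem II assembly, was at 453 and 476 CPM in Ler and at 211 and 267 CPM in cry1cry2 (-1.03 ± 0.16, adjusted p = 0.000417, edgeR). ERD9, which holds both motifs and overlaps the locus AT1G10360 on the same strand, was not called under that filter (-0.78 ± 0.35, adjusted p = 0.181, edgeR).

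The smallest adjusted p-values under UVA350 belonged to genes annotated by domain only. AT1G57770, annotated as a FAD or NAD(P)-binding oxidoreductase, was at 94.6 and 101 CPM in Ler and at 20.9 and 26.3 CPM in cry1cry2 (-2.12 ± 0.15, adjusted p = 4.6e-08, edgeR). AT1G06690, annotated as an NAD(P)-linked oxidoreductase, was at 117 and 120 CPM in Ler and at 24.8 and 29.6 CPM in cry1cry2 (-2.19 ± 0.17, adjusted p = 1.54e-07, edgeR). In uvr8-2 under this filter AT1G57770 was at 84.8 and 98.7 CPM, overlapping Ler. AT1G06690 was at 149 and 140 CPM in uvr8-2, above both Ler libraries. AT1G06690 overlaps AT1G06680 on the other strand. AT5G62210, annotated as an embryo-specific protein, was at 14.0 and 15.8 CPM in Ler and at 5.70 and 6.11 CPM in cry1cry2 (-1.41 ± 0.38, adjusted p = 0.0245, edgeR), a call that was lost without any 1 of these 4 libraries.

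Under UVA the gap between cry1cry2 and Ler was narrower but not closed. Of the 59 genes 14 were lower in cry1cry2 and 0 higher, where 1.47% of genes were called lower and 1.91% higher, and all 59 estimates lay below 0 (median -0.50 against 0.01 over all genes). The 14 were 4CL3, CHI, PSBS, DHS1, FAD8, AT1G76720, AT1G06690, AT1G57770, AT5G22020, AT4G29590, AT4G36530, AT4G28740, AT3G05410 and AT4G27560. DHS1, the entry enzyme of the shikimate pathway, had the smallest adjusted p: it was at 275 and 266 CPM in Ler and at 132 and 151 CPM in cry1cry2 (-0.95 ± 0.12, adjusted p = 7.05e-05, edgeR). By DESeq2 and with a replicate block the count was higher, as given in the last section. It fell when single libraries were left out. It was 2 without replicate 1 and 7 without replicate 2 of Ler under UVA, 4 without replicate 1 and 5 without replicate 2 of cry1cry2 under UVA, and 3 without the libraries above 1% chloroplast counts. Replicate 1 was higher than replicate 2 in 50 of the 59 genes in Ler under UVA, in 45 in cry1cry2 and in 47 in uvr8-2.

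Under the same filter 6 of the 59 genes were lower in uvr8-2 than in Ler and 0 higher, where 0.15% of genes were called lower and 0.0951% higher. They were 4CL3, CHI, RHM1, DHS1, AT5G22020 and AT5G62210. The median of the 59 was -0.39 against 0.00 over all genes, and that of the 10 flavonoid enzymes was -1.18. Since the rule asked for a UV rise in Ler and not in uvr8-2, this direction was favoured by the choice of genes. RHM1 was at 902 and 625 CPM in Ler and at 449 and 303 CPM in uvr8-2 (-1.03 ± 0.21, adjusted p = 0.0415, edgeR), and 4CL3 at 139 and 105 CPM in Ler and at 61.3 and 39.0 CPM in uvr8-2 (-1.30 ± 0.25, adjusted p = 0.0395, edgeR). The groups did not overlap in either gene. DESeq2 called 12 of the 59, all lower, and 0.511% of genes. In edgeR none of the 6 was called without any 1 of the 4 libraries compared (replicates 1 and 2 of Ler and of uvr8-2 under UVA), and 2 were called without the libraries above 1% chloroplast counts.

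**Figure D5:**
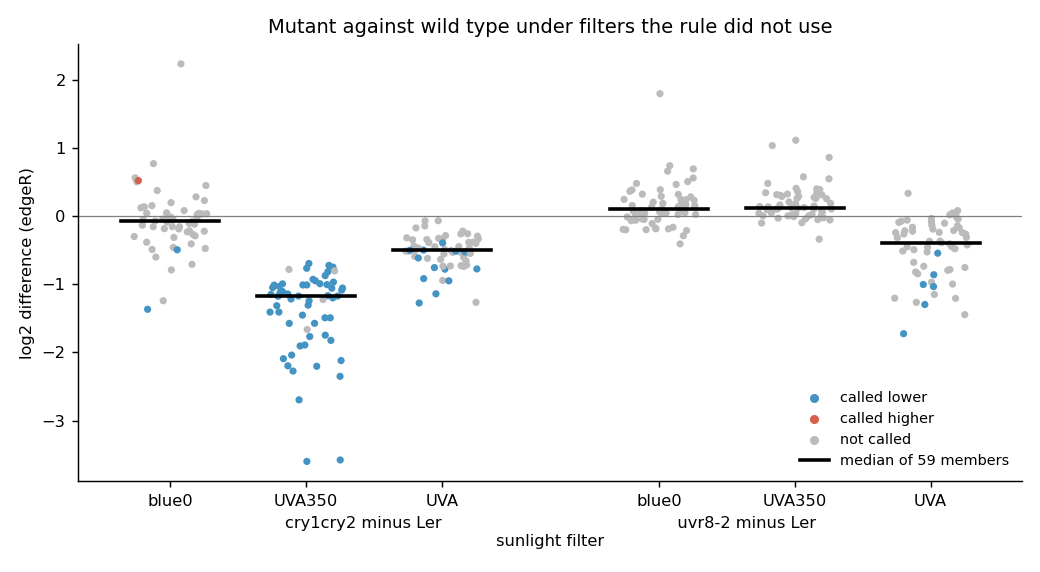
The log2 difference from Ler (edgeR) of each of the 59 genes in cry1cry2 and uvr8-2 under blue0, UVA350 and UVA, coloured by call, with medians as black bars. The medians are -0.07, -1.18 and -0.50 in cry1cry2 and 0.10, 0.13 and -0.39 in uvr8-2, and the medians of the mutants lie farthest apart under UVA350.

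Blue light, alone or with long UV-A, was compared through libraries outside the rule. The rule nevertheless asked for a higher level in Ler than in cry1cry2 under UV0, the filter next to blue0. A rise over blue0 in Ler and uvr8-2, and a smaller one in cry1cry2, were thus favoured by the choice of genes. As far as the filter names tell, UV0 against blue0 differs in blue light, and UVA350 against blue0 in blue light and long UV-A together. In uvr8-2, 56 of the 59 genes were higher under UV0 than under blue0 and 0 lower, where 8.38% of genes were called higher and 6.86% lower, and the median rise was 1.61 against -0.01 over all genes. ELIP1 went from 3.93 and 2.94 CPM under blue0 to 915 and 653 CPM under UV0 in this mutant, a rise of 7.89 ± 0.55 (adjusted p = 9.75e-08, edgeR). DREB2C, AT3G61920 and AT3G05410 were not called. In Ler, 55 of the 59 were higher under UVA350 than under blue0 and 0 lower, where 11.6% of genes were called higher and 10.7% lower (median 1.70 against -0.03). Marker genes moved in both comparisons. In uvr8-2, 5 of the 6 rosette leaf markers were higher under UV0 than under blue0 (median 0.70, edgeR), with sums of 34737 and 37855 CPM against 30770 and 31722 CPM, and so were 2 of the 5 guard cell markers (144 and 149 CPM against 110 and 113 CPM in sum). In Ler, 5 of the 6 rosette leaf markers (median 1.17) and 1 of the 5 guard cell markers were higher under UVA350 than under blue0, the former with sums of 38415 and 39558 CPM against 26157 and 28828 CPM. No phloem marker was called in either comparison. The part of these markers in the result was not tested.

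In cry1cry2 the same comparison called 2 genes higher, ELIP1 and GPX7, and 0 lower, where 0.025% of genes were called higher and 0.00501% lower. ELIP1 was at 3.72 and 1.55 CPM under blue0 in this mutant and GPX7 at 1.02 and 1.02 CPM, far below their levels under UVA350 given above. The estimate for ELIP1 was 4.16 ± 0.51 (adjusted p = 0.00254, edgeR) and that for GPX7 3.34 ± 0.34 (adjusted p = 0.000134, edgeR), and the median of the 59 was 0.48 against 0.01. At an unadjusted p under 0.05, 36 of the 59 were higher and 0 lower, where 8.19% of all genes passed in either direction, and DESeq2 called 15 of the 59, all higher, and 0.33% of genes. Without replicate 2 of cry1cry2 under blue0 only GPX7 was called by edgeR.

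The rise from blue0 to UVA350 was smaller in cry1cry2 than in Ler in 26 of the 59 genes and larger in 0, where 0.951% of genes were called smaller and 0.355% larger. The median of this difference was -1.18 against 0.03 over all genes, and all 59 estimates lay below 0. The choice of genes favoured this direction. The smallest adjusted p-values belonged to FAD8, AT1G57770, RSR4 and AT1G06690. The 26 held ELIP1, PSBS, BCH1, RUP2 and, of the 10 flavonoid enzymes, 4CL3 alone, whose call was lost without any 1 of the 8 libraries compared. Without replicate 1 of Ler under UVA350, 17 genes were called.

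Under blue0 itself few of the genes were called. In cry1cry2 against Ler, FAD8 was higher and DHS1 and AT1G76720 were lower, where 0.926% of genes were called higher and 0.581% lower, and the median of the 59 was -0.07. The 6 rosette leaf markers, of which 2 were higher in cry1cry2 here (median 0.45, edgeR), summed to 29904 and 31815 CPM in cry1cry2 and to 26157 and 28828 CPM in Ler, and their part in the result was not tested. AT1G76720, annotated as an initiation factor family protein, was at 8.73 and 8.60 CPM in Ler and at 3.39 and 3.13 CPM in cry1cry2 (-1.37 ± 0.26, adjusted p = 0.00935, edgeR). FAD8 was at 58.4 and 67.4 CPM in Ler and at 81.3 and 93.9 CPM in cry1cry2 (0.52 ± 0.13, adjusted p = 0.04, edgeR), so its groups stood in the opposite order to that under UVA350. DESeq2 called 2 of the 59 higher and 4 lower, and 2.42% of genes. In edgeR none of the 3 was called without replicate 1 or replicate 2 of Ler or replicate 1 of cry1cry2 under blue0, and only DHS1 was called without replicate 2 of cry1cry2. In uvr8-2 against Ler under blue0, edgeR called 0 of the 59 and 0% of genes in both directions, 4 of the 59 were higher at an unadjusted p under 0.05 where 5.66% of all genes passed, and DESeq2 called 0 of the 59 and 0.0501% of genes.

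Some of the genes rose with solar UV in uvr8-2 as well. The rule asked for a rise from UV0 to UVA+B in Ler. A rise in uvr8-2 between these filters, or within their range, was thus favoured by the choice of genes. From UV0 to UVA+B in uvr8-2, 13 of the 59 were higher and 0 lower, where 0.681% of genes were called higher and 0.0901% lower, and the median rise was 0.60 against 0.00 over all genes. The 13 were GPX7, AT2G41040, PES1, CHI, SPPA, RUP2, CM1, PREP1, BCH1, MSRB1, RSR4, AT1G19140 and AT3G05410. GPX7 went from 40.2 and 32.6 CPM to 99.6 and 106 CPM (1.58 ± 0.22, adjusted p = 0.00151, edgeR), and CM1 from 86.5 and 81.2 CPM to 162 and 156 CPM (1.00 ± 0.16, adjusted p = 0.00311, edgeR). In both genes the UVA+B libraries lay above those of UV0. At an unadjusted p under 0.05, 45 of the 59 were higher and 0 lower, where 12.3% of all genes passed in either direction, and DESeq2 called 32 of the 59, all higher, and 1.73% of genes. The count in edgeR was 8 without replicate 1 and 7 without replicate 2 of uvr8-2 under UVA+B, 4 without replicate 1 of uvr8-2 under UV0, and 0 without replicate 2 of that group.

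For UVA+B against UVA in uvr8-2, edgeR called 0 of the 59 and 0% of genes, 38 of the 59 were higher at an unadjusted p under 0.05 where 6.03% of all genes passed in either direction, and DESeq2 called 11 of the 59 and 0.16% of genes. The median of the 59 was 0.44. Without replicate 2 of uvr8-2 under UVA+B edgeR called 1. For UVA350 against UV0 in this mutant, edgeR called 0 of the 59 where 0.025% of genes were called higher and 0.025% lower. At an unadjusted p under 0.05, 10 of the 59 were higher and 4 lower, where 15.4% of all genes passed, and DESeq2 called 2 of the 59 and 1.29% of genes. The median of the 59 was 0.14.

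Under UVA+B the levels in uvr8-2 were below those of Ler in most of the genes. Because Ler under UVA+B entered the rule, this is a description: uvr8-2 minus Ler had a median of -0.76 on the log2(mean CPM + 1) scale and lay above 0 in 3 of the 59. FLS1 was at 1456 and 1718 CPM in Ler, at 1864 and 1750 CPM in cry1cry2 and at 425 and 427 CPM in uvr8-2. RHM1 was at 2861 and 3087 CPM in Ler, at 3231 and 3132 CPM in cry1cry2 and at 950 and 715 CPM in uvr8-2. In both enzymes uvr8-2 lay below the other genotypes without overlap. PSBS, at 5462 and 5912 CPM in Ler and at 4728 and 4618 CPM in uvr8-2, had a smaller gap.

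The 195 genes that were lost in cry1cry2 under UV0 but did not enter the set had a median of cry1cry2 minus Ler of -0.80 under UVA, -0.81 under UVA350 and -0.50 under blue0 on the log2(mean CPM + 1) scale. The same medians over the 59 genes were -0.48, -1.08 and -0.11. From UVA350 to UVA in cry1cry2 the median change was 0.05 over the 195 and 1.29 over the 59. These values are given side by side without a test, since the rule parted the 2 sets on the same genotypes.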

How the data were processed

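The authors deposited 1 table of estimated counts for 34212 loci in 30 libraries. The submitters' processing notes name FastQC, Trimmomatic 0.33 and kallisto, while the sources used here give neither a transcriptome nor a strand setting. Of the deposited estimated counts, 66.0% were not whole (tolerance 0.0001), and they were rounded for testing.

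CPM used each column's total. Tests used edgeR 4.0.16 (R 4.3.3, limma 3.58.1): filterByExpr left 19980 genes, TMM factors ran from 0.927 to 1.11 (a shift of up to 0.15 on the log2 scale), and a robust quasi-likelihood fit had 1 coefficient for each of 15 groups, with a common biological coefficient of variation of 0.125 and 15 residual degrees of freedom. Adjusted p-values are Benjamini-Hochberg over all genes tested. Errors of log2 differences are standard errors. The scripts were tested on simulated data. Alternatives were DESeq2 1.42.0 with its size factors, no filter, a replicate block, and leaving out libraries.

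The members, lists and tests were chosen with earlier results of these data known. Genes were named by rule: the 20 with the largest rise in cry1cry2, every listed member, the 4 with the smallest adjusted p in each direction of a comparison, and those nearest a threshold. Other members appear by name where a count or a promoter called for it. Names came from the gene lists for listed loci and otherwise from the reference annotation, which matched 97.7% of the loci.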

Additional observations from a re-analysis of the deposited data

Results flagged for a closer look

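The step from UVA350 to UVA differed between cry1cry2 and Ler in 3 of the 59 genes by the interaction test of edgeR. The log2 difference of the steps was 2.25 for GPX7, 1.34 for AT1G57770 and 1.23 for SPPA, larger in cry1cry2 in each. The rule that chose the genes favoured this direction. GPX7 lost its call without any 1 of the 8 libraries compared.

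The rise from blue0 to UVA350 differed between the same genotypes in 26 of the 59 genes, smaller in cry1cry2 in each. The rule favoured this direction too, since it asked for a lower level in cry1cry2 under the neighbouring filter UV0. Those with the smallest adjusted p-values were FAD8 (-1.53), AT1G57770 (-1.64), RSR4 (-1.71) and AT1G06690 (-1.71) on the log2 scale. The 2 sets of values share the UVA350 libraries of both genotypes, so AT1G57770 in both is not independent evidence.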

How the results depend on the processing

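The number of genes the rule took was 34 to 77 with 1 replicate alone, 67 with TMM-scaled CPM (56 of the 59 among them) and 60 with a pseudocount of 0.5 (all 59 among them). The counts of 56, 55, 48 and 55 genes called for uvr8-2 UV0 against blue0, cry1cry2 against Ler under UVA350, cry1cry2 UVA against UVA350 and Ler UVA350 against blue0 stayed within 1.5 times under every alternative run. Without 1 library the other counts ranged from 0 to 8 for uvr8-2 UVA+B against UV0, 0 to 1 for uvr8-2 UVA+B against UVA, 2 to 7 for cry1cry2 against Ler under UVA, 0 to 1 under blue0, 0 to 0 for uvr8-2 against Ler under UVA, 0 to 7 for Ler UVA against UVA350, 0 to 3 for cry1cry2 minus Ler in that step, 1 to 2 for cry1cry2 UVA350 against blue0 and 17 to 23 for the difference of that rise.

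DESeq2 called 32 genes for uvr8-2 UVA+B against UV0, 11 against UVA, 2 for uvr8-2 UVA350 against UV0, 19 for cry1cry2 against Ler under UVA, 6 under blue0, 12 for uvr8-2 against Ler under UVA, 1 under UVA350, 20 for Ler UVA against UVA350, 14 for the difference of that step in cry1cry2, 5 for that in uvr8-2 and 15 for cry1cry2 UVA350 against blue0. In the same order it called 1.73%, 0.16%, 1.29%, 3.9%, 2.42%, 0.511%, 0.115%, 0.49%, 0.0801%, 0.03% and 0.33% of all genes. Without the filter the counts were 1 for uvr8-2 UVA+B against UVA and 2 for uvr8-2 against Ler under UVA. Without the libraries above 1% chloroplast counts they were 3 for cry1cry2 and 2 for uvr8-2 against Ler under UVA, and 0 for the difference of the step. The cause of these changes was not tested.

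Samples of the same number deviated together in 104 of 105 pairs of groups (correlation over 0.1 across 14536 genes; lowest 0.098, median 0.351), a hint from the data that a number marks shared conditions. The labels do not say which field blocks a number stands for, and pairing was taken only from labels or with all pairs over 0.1, so the tests above carry no block. With the replicate block the counts were 34 for uvr8-2 UVA+B against UV0, 1 against UVA, 4 for UVA350 against UV0, 27 for cry1cry2 against Ler under UVA, 8 under blue0, 10 for uvr8-2 against Ler under UVA, 1 under UVA350, 19 for Ler UVA against UVA350, 8 for the difference of that step and 8 for cry1cry2 UVA350 against blue0. In the same order 3.66%, 0.11%, 4.06%, 8.18%, 5.37%, 0.596%, 0.11%, 0.746%, 0.0501% and 0.571% of all genes were called, against 0.771%, 0%, 0.0501%, 3.38%, 1.51%, 0.245%, 0.01%, 0.2%, 0.015% and 0.03% without the block. Of 1800 alternatives of 192 called values of named genes, 1558 kept the call, 242 lost it and 0 reversed. With 2 libraries a group, differences near the spread between replicates were not detectable at this depth.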
